A study of Caenorhabditis elegans with 4 samples.

Results

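The middle part of the X chromosome of Caenorhabditis elegans held 1311 of the 13878 ZFP-1 peaks in the list deposited for the whole series. A peak was a member when it lay on X and its midpoint fell from position 6140000 to below 12480000 on WormBase WS220, a window of 6.34 Mb that corresponds to the low-recombination centre of X. The rule used position alone, not score or width. The same window held 311 of 3559 peaks in the list of ChIP replicate 1 and 587 of 6371 in the list of ChIP replicate 2. Chromatin immunoprecipitation and sequencing (ChIP-seq) had been run on whole L3 larvae of the wild-type strain N2, kept at 20 °C as a population of both males and hermaphrodites. The 4 samples were 2 ZFP-1 immunoprecipitates, made with a rabbit polyclonal antibody to ZFP-1, and 2 input DNA samples, for which no peak list was analysed here. The labels name no separate cultures for the replicates, so their spread may be technical. Whole larvae were used, so no peak can be assigned to a tissue or a sex.

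ZFP-1 is a PHD zinc-finger protein and the worm homologue of human AF10. It forms a complex with DOT-1.1, a methyltransferase of lysine 79 on histone H3, and is known for binding near the promoters of actively transcribed genes. X is present in a pair in hermaphrodites and singly in males, and a condensin-based dosage compensation complex lowers its transcription in hermaphrodites. In the centres of the autosomes crossovers are rare and genes lie close together, which makes them the nearest counterpart of the window on X. The centres of II (4.88 to 12.02 Mb), III (3.72 to 10.34 Mb), IV (3.9 to 12.97 Mb) and V (5.9 to 16.55 Mb) were used, with borders after the published recombination map of the worm, rounded to 10 kb. The map was not among the sources used here, so these borders, on which every comparison with the autosomes rests, were not checked against it. They held 1274, 1218, 1369 and 1417 series-list peaks.

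In each full list, the middle of X was the most densely marked of the 5 windows. Its members came to 207 per Mb in the series list (exact Poisson 95% interval 196 to 218). The centre of III had 184 per Mb, II had 178, IV had 151 and V had 133, a mean of 162 ± 23.9 (SD, n = 4 centres). X lay at 1.28 times that mean, above every autosomal centre. Both replicates gave the same rank. Replicate 1 had 49.1 peaks per Mb in the window on X, against 33.6 to 47.6 in the autosomal centres, and replicate 2 had 92.6 against 58.1 to 79.6. The lead over the next window, III, was small in replicate 1, where the interval of X (43.8 to 54.8 per Mb) overlapped that of III (42.5 to 53.1). In the better-scoring 50% of the series list, X had 87.5 per Mb against a mean of 80.3 and ranked 2 of 5. The centre of I, which was not among the 4, had 184 series-list peaks per Mb. Replicate 1 had 49.6 per Mb there and replicate 2 had 78.8, so X did not lead in replicate 1 when I was included. Among series-list peaks met in both replicates, X had 77.3 per Mb, III had 77.2 and the centre of I had 79.4. For those peaks X and III were nearly equal, and X did not lead when I was included. With 1 window against 4, an exact two-sided permutation test cannot go below p = 0.2, so no difference between X and the autosomal centres, here or in what follows, could pass 0.05. Ranks and values are given as descriptions.

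Members covered 608 kb, or 9.59% of the window, against 7.24 ± 1.27% (SD, n = 4) of the autosomal centres, with a highest value of 8.72% on III. In replicate 2, peaks covered 17.3% of the window on X and 10.3 to 15.6% of the centres. In replicate 1 the covered share was 9.19% on X and 9.30% on III, so X came second there. X also ranked 2 of 5 in the better-scoring 50% of the series list, at 6.10% against a mean of 5.07%. Among series-list peaks met in both replicates it ranked 2 of 5 as well, at 5.53% against 4.36%. Peaks were of nearly equal width in all windows. The median member was 347 bp wide (interquartile range 234 to 527 bp, full range 146 to 6915 bp), against medians of 320.5 to 346.5 bp in the autosomal centres of II to V and 353 bp in that of I. Median widths in the replicate lists were 1309 bp in replicate 1 and 1300.0 bp in replicate 2 for X, within the range of the autosomal centres (1286 to 1361 bp and 1201 to 1336 bp).

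**Figure D1:**
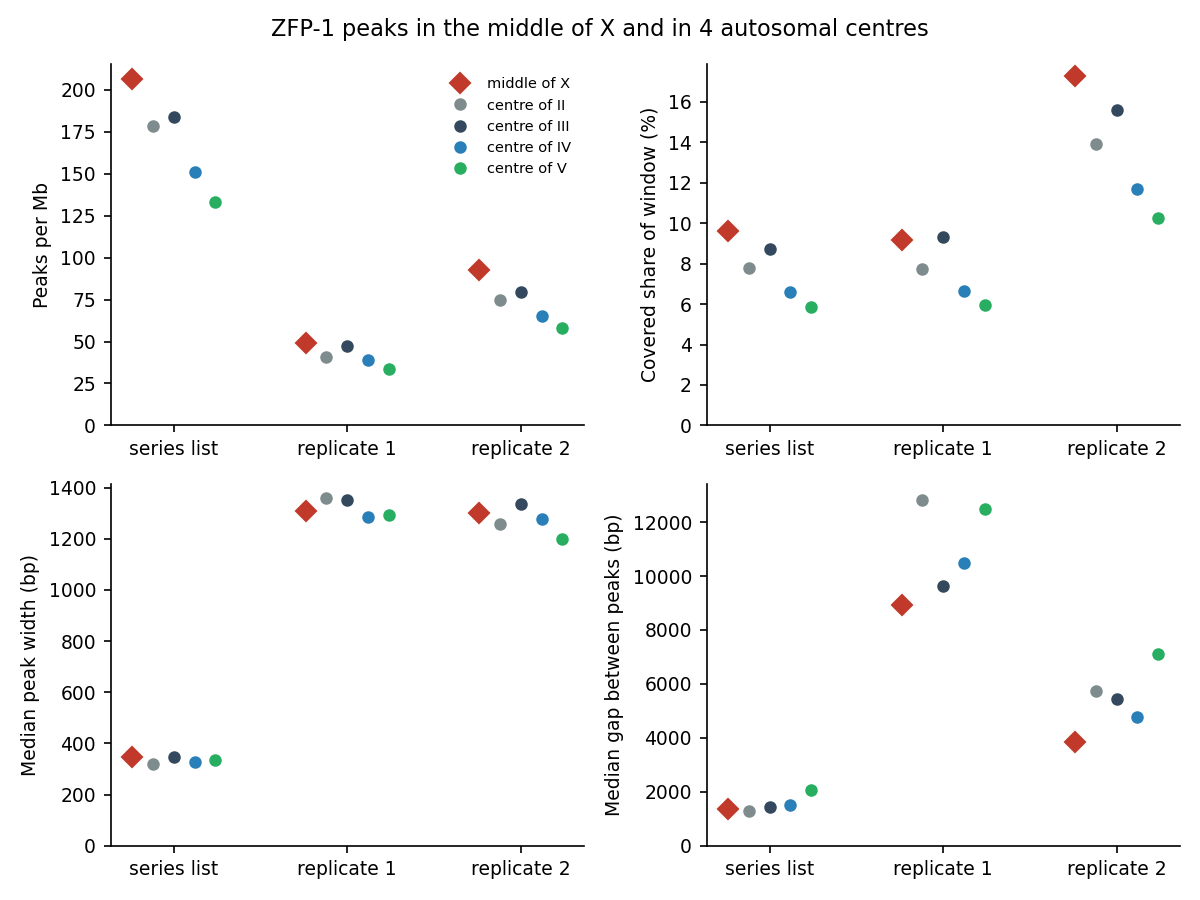
Peaks per Mb, covered share of the window (%), median peak width (bp) and median gap between neighbouring peaks (bp) in the middle of X (diamonds) and in 4 autosomal centres (circles), for the series list and both replicates. The diamond is highest for peaks per Mb in all 3 lists, at 207, 49.1 and 92.6, and is within the spread of the circles for width in both replicates.

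Member scores were lower than those of the autosomal centres in the series list. The score is the authors' own value per peak, of unstated scale. It was used to rank peaks within 1 list and, as log10 values, in correlations given as descriptions. The median member scored 13.3 (interquartile range 6.44 to 34.6), below the medians of 14.9 on II, 15.98 on V, 18.08 on III and 18.09 on IV. Replicate 1 also gave X the lowest median of the 5 windows (169, against 180.5 to 251). In replicate 2 the median was 290 on X, above only II at 280. Peaks at or above 3100, where many scores are tied, were 3 of 311 in replicate 1 (0.96% on X, 1.97 to 4.44% in the autosomal centres). In replicate 2 they were 46 of 587 (7.84% on X, 7.14 to 11.2% in the centres).

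When all 13878 peaks were divided into 5 equal classes by score, the higher density of X was found in the 4 lower classes. In the lowest class X had 49.7 members per Mb against 34.2 ± 6.82 (SD, n = 4 centres), 1.45 times as many. The next classes gave 45.9 against 31.6 ± 4.45, 43.4 against 32.0 ± 5.17 and 39.0 against 31.2 ± 3.69, with X first of 5 in each. In the highest class, with members scoring from 65.9 to 228, X had 28.9 per Mb against 32.6 ± 7.14 and ranked 4 of 5, ahead of V alone (25.4). That class made up 13.96% of the members (183 of 1311), and 16.5 to 22.9% of the peaks in the autosomal centres. The replicates, divided by their own scores, repeated this order in part. X was first in the lowest 3 classes of replicate 1 and the lowest 4 of replicate 2. In class 4 of replicate 1 it ranked 3 of 5, at 7.41 per Mb against a mean of 7.74. In the highest class it ranked 2 of 5 in replicate 1 (9.46 per Mb against a mean of 8.57) and 3 of 5 in replicate 2 (14.5 against 14.7).

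Within score classes of the series list, members had a larger median width than peaks of the autosomal centres. Scores were not matched further within a class. The median width in the highest class was 812 bp on X against 702.5 ± 27.5 bp (SD, n = 4), and in the middle class 375 bp against 307.5 ± 7.86 bp. X had the highest median of the 5 windows in all 5 classes. The smallest difference was in the lowest class, at 206 bp against 194 ± 1.89 bp. Width rose with score in every window, with a Pearson correlation of the log10 values of 0.74 across the 1311 members and 0.75 to 0.77 in the autosomal centres. These are correlations across peaks called in the same list, given as a description. In the replicate lists, X had the widest median in classes 2 and 3 of replicate 1 and in classes 1, 2 and 4 of replicate 2. It ranked 2 of 5 in the other classes, except class 4 of replicate 1, where its median was 1344 bp against a mean of 1581 bp and it ranked 4 of 5.

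**Figure D2:**
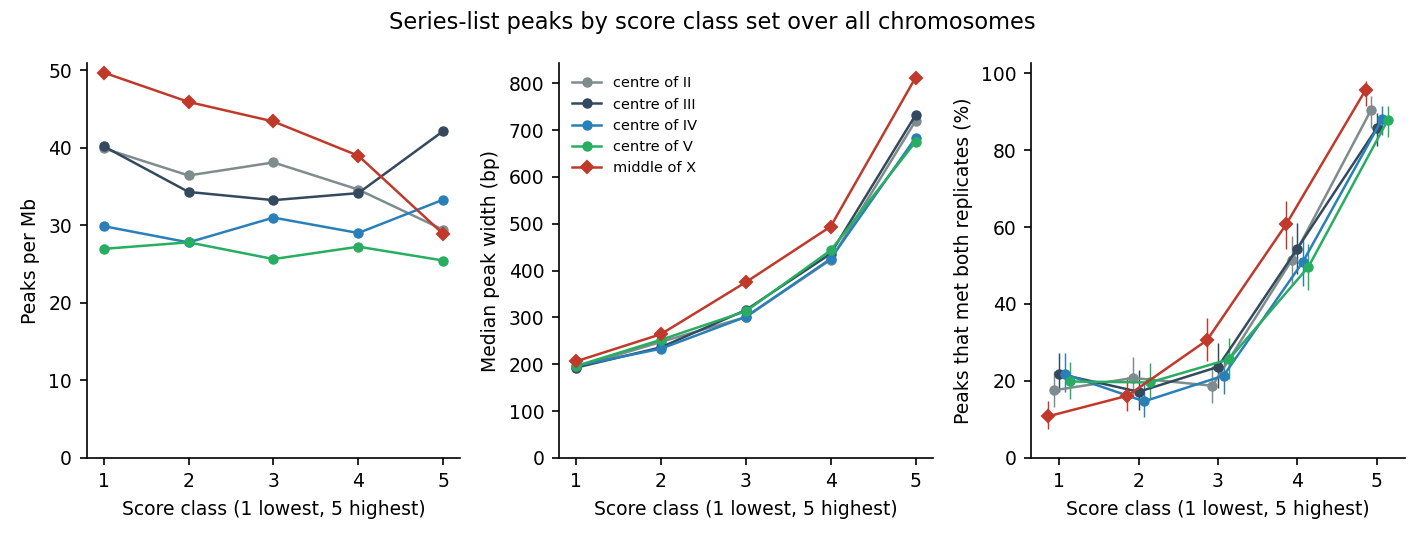
Series-list peaks per Mb, median width (bp) and share meeting a peak in both replicates (%, bars are exact 95% intervals over peaks) by score class, for the middle of X (diamonds) and 4 autosomal centres (circles). The density of X goes from 49.7 per Mb in the lowest class to 28.9 in the highest, while its median width is above that of the other windows in every class, reaching 812 bp.

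Support in the replicates was counted as an overlap of at least 1 bp. Of the members, 490 met a peak in both replicates, or 37.4% (exact Clopper-Pearson 95% interval 34.7 to 40.1%), where 38.4% of all series-list peaks did. A further 499 members (38.1%, 35.4 to 40.8%) met replicate 2 alone, against 35.4% of all series-list peaks, 10 (0.76%) met replicate 1 alone, and 312 (23.8%, 21.5 to 26.2%) met neither, against 25.3%. These shares lie near those of the whole list. The autosomal centres gave 37.0 to 42.0% for both replicates, 32.3 to 36.6% for replicate 2 alone and 23.97 to 26.4% for neither. X was thus highest of the 5 for replicate 2 alone and lowest for neither. Replicate 2 peaks also covered more of X than of the autosomal centres (17.3% against 10.3 to 15.6%), and the part of this in the ranks was not tested. The centre of I, outside the 5, gave 43.1% for both, 34.4% for replicate 2 alone and 21.1% for neither. With I included, X was not lowest for neither. Members met in both replicates scored 42.2 in the median and spanned 555 bp, and those met in neither scored 5.56 and spanned 210 bp. The series list is not independent of the replicates, and intervals treat neighbouring peaks as separate.

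Members of high score were recovered more often than peaks of the same class on the autosomes, and members of the lowest score less often. In the highest class 175 of 183 members met both replicates (95.6%, 91.6 to 98.1%), against 85.7 to 90.5% in the autosomal centres. In the fourth class the share was 60.7% against 49.7 to 54.4%, and in the middle class 30.5% against 18.75 to 25.6%. In the lowest class it was 10.8% (7.59 to 14.8%) against 17.5 to 21.8%. X ranked first in the upper 3 classes and last in the lowest. Members of the lowest class also lay beside strong peaks less often. Of them, 27.9% (88 of 315) shared a cluster, as defined below by gaps under 2 kb, with a peak of the highest class, against 37.5 to 50.8% in the autosomal centres. The highest class was also a smaller share of peaks on X, 13.96% against 16.5 to 22.9%, and the part of this in the 27.9% was not tested. Members were also wider than peaks of the same class elsewhere, and the part of width in these shares was not tested. The middle class held few unsupported members, 30 of 275 (10.9%) meeting neither replicate against 20.9 to 27.1%.

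The strongest members were wide for the window. The 10 with the highest scores among those met in both replicates scored 182 to 228 and were 654 to 1612 bp wide, all above the members' upper quartile of 527 bp. The leading member, X from 11974191 to 11975179, scored 227.99 and lay under a peak of 1327.2 in replicate 1 and of 3100 in replicate 2. The next, from 7129320 to 7130140, scored 223.56, with 1168 in replicate 1 and 3073.69 in replicate 2. A pair in the left part of the window ran from 7793187 to 7794764 (208.75) and from 7814556 to 7815462 (182.07). Their replicate 1 scores were 1494.45 and 924.51, and their replicate 2 scores 3100 and 1930.76. The remaining members of the 10 lay in the right part of the window. Those from 10371894 to 10372921 and from 11797754 to 11798657 scored 207.98 and 207.65, with 1141.37 and 1118.51 in replicate 1. The member from 11666208 to 11667122 scored 202.16 and the one from 10877033 to 10877686 scored 199.89. The latter had the lowest replicate 1 score of the 10, at 427.67. The member from 10237660 to 10238693 scored 192.76 and had the highest replicate 1 score, 1567.01. The member from 12180541 to 12182152 scored 186.37 and had the lowest replicate 2 score, 1144.85, inside a replicate 2 peak 16178 bp wide. Of the 10, 6 lay under one of the best-scoring 10% of replicate 2 peaks and 2 under one of the best-scoring 10% of replicate 1 peaks. Replicate 2 scores of 5 of them were at the tied value of 3100, so these cannot be ordered there.

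Of the 312 members met in neither replicate, 5 scored between 17.5 and 43.6 and the others less. The highest, from 11791438 to 11792143 (706 bp, 43.56), lay 5426 bp from the nearest replicate 2 peak and 5532 bp from the nearest replicate 1 peak. It was the single member of the 2 upper score classes without support. The next 4 were 208 to 348 bp wide. Unsupported members had a median distance of 2871 bp to the nearest replicate 2 peak and 6581 bp to the nearest replicate 1 peak. Of them, 130 (41.7%) lay within 2 kb of a replicate 2 peak and 50 (16.0%) lay over 10 kb away.

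Members followed each other closely. The median gap between neighbouring members, measured from edge to edge, was 1352 bp. It was 1282 bp on II, 1429 on III, 1496 on IV and 2062 on V, so X came second shortest. The short gaps of the windows were alike: 27.1% of the gaps on X were under 500 bp, against 25.99 to 28.0% on the autosomes, and the lower quartile was 457 bp against 430.0 to 486 bp. In the series list, the long gaps were shorter on X. Its upper quartile was 4876 bp, against 5897 to 8074 bp, and its 95th percentile 19194 bp, against 21469 to 31236 bp. Of the gaps on X, 75.3% were under 5 kb, against 65.8 to 71.6%. In the replicates, the median gap on X was the shortest of the 5 windows, at 8909 bp against 9640 to 12822 bp in replicate 1 and 3846 bp against 4781 to 7114 bp in replicate 2. The upper quartile of X was also the shortest in both. The 95th percentile of X was the shortest in replicate 2, at 34344 bp, but not in replicate 1 (70678 bp, with 70414 bp on III). In replicate 1, 37.1% of the gaps on X were under 5 kb, against 39.0% on IV. The longest gap on X exceeded that on III in both, at 123657 against 114855 bp and 94049 against 88565 bp. Relative to the mean gap, the spread of gaps on X did not stand apart. The coefficient of variation was 1.68 on X, and 1.54 (III), 1.73 (II), 1.78 (V) and 1.89 (IV) on the autosomes. The order of the median depended on which peaks were used. In the better-scoring 50% of the series list, a common score limit for all windows, the median gap was 4461 bp on X against a mean of 4663 bp, and X ranked 3 of 5. Among peaks met in both replicates, X had the longest median gap of the 5, 2252 bp against a mean of 1844 bp. Among the best-scoring 100 peaks per Mb of each window, it had 3908 bp against a mean of 3457 bp and ranked 3 of 5. These last subsets do not match the windows by score.

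**Figure D3:**
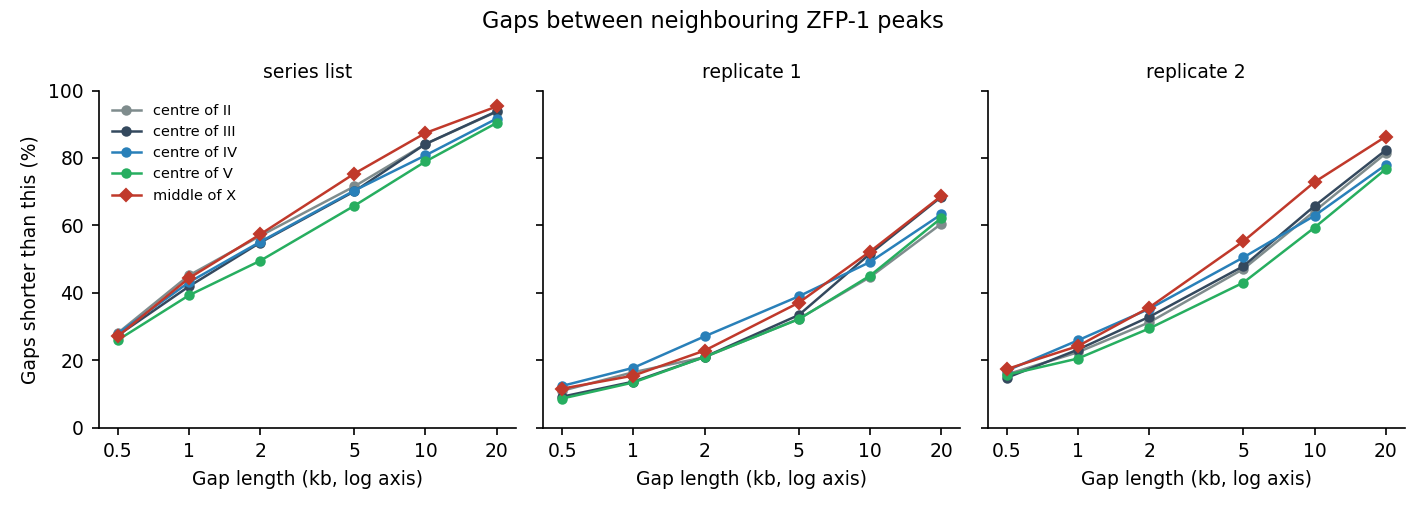
Share of gaps between neighbouring peaks (%) that are shorter than the length on the log axis (kb), for the series list and both replicates, in the middle of X (diamonds) and 4 autosomal centres (circles). The lines meet below 1 kb in the series list, and that of X is highest at 5 kb, at 75.3%, with replicate 2 at 55.3%. In replicate 1, IV is above X at 5 kb, at 39.0% against 37.1%.

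Joining members under 2 kb apart gave 560 clusters, or 88.3 per Mb, against 83.1 on III, 77.0 on II, 67.8 on IV and 67.2 on V. Of the 560, 287 were single members (21.9% of the members) and 273 held 2 or more. The mean was 2.34 members per cluster, against 1.98 to 2.32 peaks on the autosomes. Clusters of 5 or more were more frequent on X, with 71 of them or 11.2 per Mb, against 6.94 ± 0.85 per Mb (SD, n = 4 centres) and a highest value of 7.70. They held 37.3% of the members, against 29.8 to 34.1%. Clusters of 10 or more were not: there were 7, or 1.10 per Mb, the lowest of the 5 windows (1.13 to 2.10 on the autosomes). They held 6.64% of the members, against 7.96 to 13.97%. This order depended on which peaks were used. Among the best-scoring 100 peaks per Mb of each window, X had the fewest peaks per cluster, 1.60 against a mean of 1.71. Among peaks met in both replicates it was also last, at 1.94 against 2.04.

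Single members were supported more often than single peaks of the autosomes. Their median score, 13.9, was close to the 13.2 of members in clusters, and their median width was 313 bp, against 266 to 301 bp for single peaks of the autosomes. Of the 287, 72 (25.1%) met both replicates and 123 (42.9%) met neither, against 19.6 to 22.6% and 45.8 to 53.7%. No intervals were computed for these shares of single peaks, and the part of width in them was not tested. Members in clusters had the reverse position: 40.8% met both replicates, the lowest of the 5 windows (41.9 to 48.4%). Larger clusters met the replicates more often. All 19 clusters of 8 or more met a peak in both replicates, as did 37 of the 65 clusters of 3 and 36 of the 104 clusters of 2. The median span was 8827 bp for the clusters of 8 or more and 1251 bp for those of 2, and the part of span in these shares was not tested.

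The cluster with most members was X from 12167664 to 12188922, with 19 members over 21259 bp. No cluster of the autosomal centres held more than 18 peaks. Replicate 1 had 4 peaks there and met 13 of the members, and replicate 2 had 4 peaks and met 16. The second, from 10681618 to 10695185, held 13 members over 13568 bp, of which replicate 2 met 12 and replicate 1 met 7. It was the most open of the 5 largest, with 39.6% of its length under members. Another, from 8014333 to 8023149, was compact, with 12 members over 8817 bp. A single replicate 1 peak touched it and met 9 of them, and replicate 2 met all 12. Clusters of 11 members followed from 9543002 to 9556293 and from 10634959 to 10648006, with best scores of 132 and 144. A further cluster of 11 members, with a shorter span, tied with them in members and is not described. Replicate 2 peaks covered 81.4 to 96.3% of each of these 5 clusters, and replicate 1 peaks 37.2 to 71.8%.

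The longest cluster was built differently. It ran over 23500 bp from 11461486 to 11484985 and held only 9 members, among them 3 of the 5 widest: from 11477567 to 11484481 (6915 bp, score 73.45), from 11462942 to 11467889 (4948 bp, 117.56) and from 11471722 to 11476430 (4709 bp, 68.42). Members covered 21205 bp of it. Replicate 2 listed the region as 1 peak of 24066 bp, and replicate 1 as 3 peaks that covered 93.9% of that peak. Replicate 1 met 8 of the 9 members and replicate 2 met all 9. The other 2 of the 5 widest members ran from 6739437 to 6745825 (6389 bp, 78.19) and from 10144935 to 10148476 (3542 bp, 163.73). The first of these lay in a broad peak of both replicates, 10439 bp wide in replicate 1 and 10999 bp in replicate 2. None of the 5 widest members was among the 10 best-scoring members described above.

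**Figure D4:**
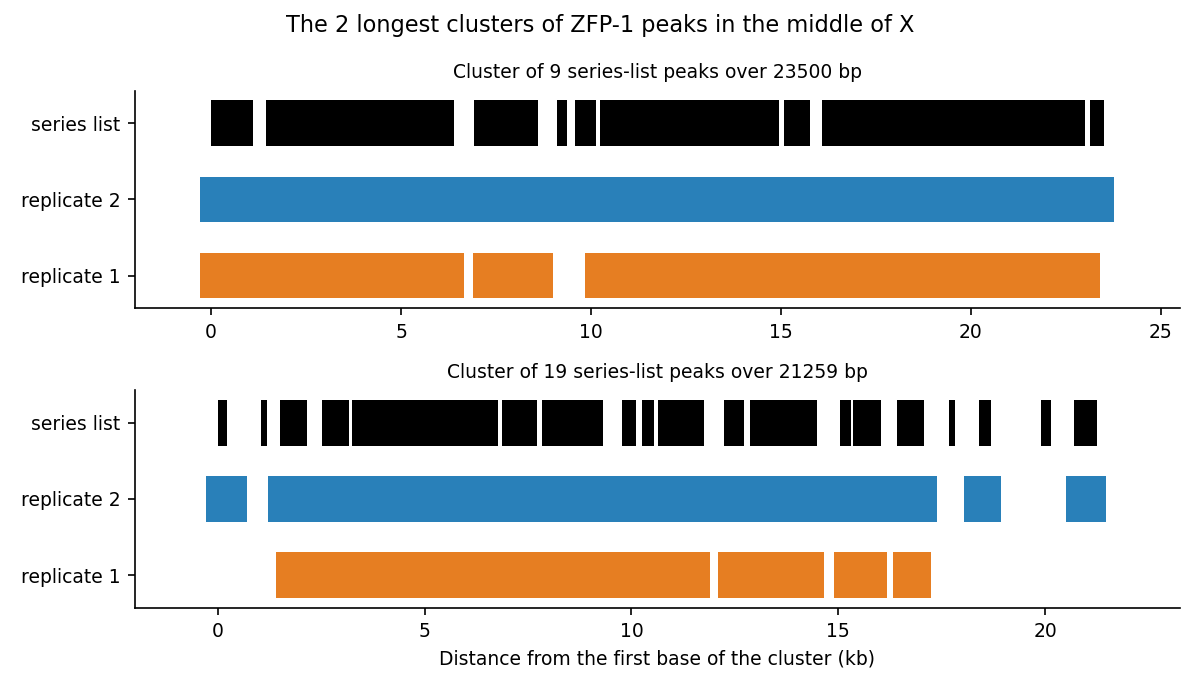
Peaks of the series list and both replicates along the 2 longest clusters in the middle of X, as distance (kb) from the first base of the cluster. In the cluster of 9 members, wide members fill 21205 of 23500 bp under 1 replicate 2 peak, while the cluster of 19 members breaks up into many narrower peaks over 21259 bp.

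Broad peaks made up about the same share of replicate peaks in the window as elsewhere. Peaks of 4 kb or more were 23 of 311 in replicate 1 (7.40%) and 38 of 587 in replicate 2 (6.47%), against 4.79 to 8.89% and 5.75 to 8.92% in the autosomal centres. Per Mb, X had 3.63 in replicate 1 and 5.99 in replicate 2, against means of 2.68 and 4.96, and ranked 2 of 5 in both. The second widest peak of each replicate in the window lay in the cluster of 19 members. Replicate 1 placed it from 12169073 to 12179559 (10487 bp), and replicate 2 placed it from 12168870 to 12185047 (16178 bp), over 13 series-list peaks. The next widest lay toward the left border in both, from 6735824 to 6746262 and from 6735220 to 6746218. Replicate 1 then had a peak of 8374 bp from 10393102 to 10401475, of which replicate 2 covered 59.1%. Replicate 2 had peaks from 10764553 to 10775026 (10474 bp) and from 9546461 to 9556576 (10116 bp), of which replicate 1 covered 82.7% and 79.95%.

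Replicate 1 peaks were nearly all found in replicate 2, and fewer than 50% of replicate 2 peaks were found in replicate 1. Of the 311 replicate 1 peaks in the window, 308 met a replicate 2 peak (99.04%, 97.2 to 99.8%), and in the autosomal centres 96.9 to 97.8% did. In the other direction 279 of 587 replicate 2 peaks (47.5%, 43.4 to 51.7%) met replicate 1, the lowest of the 5 windows by a small margin (47.9 to 53.6%). The replicate 2 peaks without a counterpart had a median score of 136, and those with one had 913. For 277 pairs, in which each peak shared most bases with the other, log10 scores correlated with Pearson r = 0.81 and Spearman rho = 0.83. The autosomal centres each gave r = 0.74, with rho from 0.79 to 0.81. These values are across peaks of 2 libraries and carry no test.

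Along the window, members were spread more evenly than peaks along the autosomal centres. The 25 full bins of 250 kb held 51.2 ± 10.8 members (SD, 25 bins), with a lowest of 33 and a highest of 74. The coefficient of variation was 0.21, against 0.27 on II, 0.28 on III, 0.29 on IV and 0.41 on V, where single bins held as few as 8. The mean count per bin was also highest on X, 51.2 against 33.6 to 46.4, and its part in this order was not tested. The densest bins were from 9390000 to 9639999 with 74 members, from 7890000 to 8139999 with 70 and from 10390000 to 10639999 with 69. The sparsest were from 9140000 to 9389999 with 33, directly beside the densest, from 10890000 to 11139999 with 37 and from 6390000 to 6639999 with 38. Replicate 1 had 16, 12 and 22 peaks in the densest bins and 10, 12 and 8 in the sparsest. Replicate 2 had 28, 29 and 33, and 18, 20 and 19. Across the 25 bins, counts of the replicates correlated with r = 0.76 and rho = 0.68, as a description of 1 stretch of chromosome. Density and covered bases led in different bins: the bin from 11390000 to 11639999, with the longest cluster, had 59 members and the highest covered share in all 3 lists, 18.3% for series-list peaks, 19.1% for those of replicate 1 and 28.9% for those of replicate 2.

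**Figure D5:**
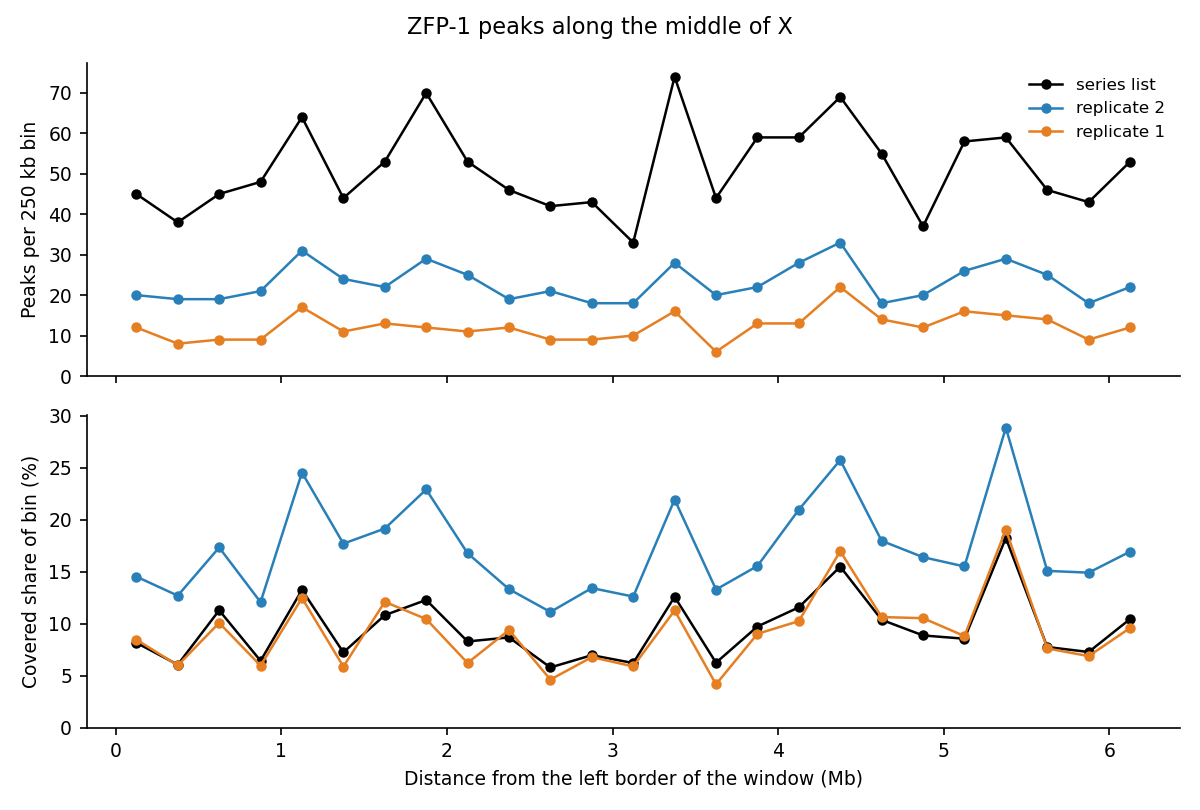
Peaks per 250 kb bin and covered share of each bin (%) against the distance from the left border of the window (Mb), for the series list and both replicates. Series-list counts range from 33 to 74, and the covered share has its maximum, 18.3% in the series list, in the bin that holds the longest cluster.

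Cut into 3 segments of equal length, the window varied little in density in the series list. The right segment held 217 members per Mb, the left 205 and the central one 199. They differed more in how members were grouped. The right segment had a mean of 2.73 members per cluster and a median gap of 1009 bp, and the central one 2.04 and 1878 bp. Both replicates placed the segments in the same order by density, at 58.7, 45.9 and 42.6 peaks per Mb in replicate 1 and 97.0, 94.2 and 86.6 in replicate 2. Density thus varied more between the segments in replicate 1. Stretches without a member were short. The longest ran from 7718784 to 7773887 (55104 bp), followed by one from 10695186 to 10748110 (52925 bp), which began at the edge of the cluster of 13 members. The next were from 6151579 to 6199594, from 10773278 to 10821108 and from 9161629 to 9209076, of 47448 to 48016 bp. Replicate 1 had a peak midpoint in 1 of the 5 stretches and replicate 2 in 1 other. Of the window, 62 stretches over 20 kb took up 29.6%. The longest such stretch in the autosomal centres was between 56230 bp (III) and 182468 bp (IV).

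Within X, the window was not set off from its flanks. The part to its left had 198 series-list peaks per Mb and the part to its right 218, against 207 in the window. Replicate 1 gave 46.3, 49.1 and 55.8 peaks per Mb from left to right, and replicate 2 gave 93.2, 92.6 and 100.3. Median scores were 13.9, 13.3 and 14.3 in the series list. In the same list and order, peaks per cluster were 2.35, 2.34 and 2.65, so the window was the lowest part of X. The covered share was 8.69, 9.59 and 9.64%, and the median gap 1439, 1351.5 and 1146 bp. At the left border, the last peak outside was from 6136446 to 6136798 (score 20.7) and the first member from 6145892 to 6146208 (28.5). At the right border, the last member was from 12467537 to 12467851 (7.56) and the first peak outside from 12480312 to 12480739 (102.76).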

How the data were processed

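The members and lists were chosen with earlier results of these data known. The 3 peak lists in GFF3 format comprised 1 for each ZFP-1 ChIP replicate, with the caller written as MACS, and 1 for the series, written as MACS v2. Per the file headers, positions are on WormBase WS220. The submitters' processing notes name BWA and ce10, without roles. Pooling of reads and use of the input are not given in the sources used here. Each peak carries a score set by the authors, on a scale the files do not name. The other deposited values are start and end positions by the authors, 1-based with both ends included. Depth is unknown.

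Counts, overlaps, gaps and clusters were computed in Python (version 3.11.15) using pandas 2.3.3, scipy 1.17.1 and numpy 2.4.6, tested on simulated data, and overlaps were checked with bedtools 2.31.1. Peaks were assigned to windows by midpoint, and bases outside a window were not counted as covered. Intervals cover counting error over peaks only. The rule for named regions was the 10 best-scoring members met in both replicates, the 5 widest, the 5 best-scoring met in neither, the 5 clusters with most members (longer span first in ties), the 5 longest stretches without a member, the 5 widest peaks of each replicate, the 3 densest and 3 sparsest bins, and the border peaks. The longest cluster and the bin with the highest covered share were named after their values were seen. The gene table is on another build, WBcel235, so no gene was assigned and no sequence is shown.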

Additional observations from a re-analysis of the deposited data

How the results depend on the processing

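Over 7 results and 74 alternatives, 45 stayed within the spread between the replicates (for the share with support, within its interval), 23 moved beyond it and 6 turned the direction. The spread was the SD of the ratios of both replicate lists, which were also counted among the alternatives. These counts are therefore no independent measure of stability. Values are ratios of X to the mean of the autosomal centres unless given as percent. With each replicate's own list, the ratio was 1.22 to 1.34 for density, 1.24 to 1.34 for covered share, 0.99 to 1.03 for width, 0.67 to 0.78 for the median gap, 1.21 to 1.27 for clusters per Mb and 1.00 to 1.05 for peaks per cluster, so width turned without replicate 2, at 0.99. In the better-scoring 50% of the series list, density was 1.09, covered share 1.202, width 1.08, gap 0.957, clusters per Mb 1.12 and peaks per cluster 0.978, the last a turn of direction. Among peaks met in both replicates, clusters per Mb was 1.26, and gap (1.22) and peaks per cluster (0.955) turned. With 100 best-scoring peaks per Mb in every window, clusters per Mb was 1.07, and gap (1.13) and peaks per cluster (0.935) turned. Joining under 1 kb gave 1.24 clusters per Mb and 1.03 peaks per cluster, and under 5 kb 1.04 and 1.23. Leaving out the centre of III gave 1.42 for covered share and 1.25 for clusters per Mb. Leaving out V gave 1.24 for covered share and 0.964 for the gap. The share of members met in both replicates, 37.4%, was 4.58% with 50% reciprocal overlap, 20.3% with the better-scoring 50% of each replicate list and 66.7% for the better-scoring members. It was 38.1 to 75.4% with 1 replicate left out. The causes were not tested, apart from fewer peaks by construction. Unknown depth limits all comparisons between lists. No paired analysis was possible because peak lists were analysed for 1 group alone, the ChIP replicates.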
